A study of Homo sapiens with 3 samples.

Results

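The TPD52 family measured here comprises 3 genes, TPD52, TPD52L1 and TPD52L2. Its members were every probe set that the platform annotation maps to 1 of these symbols. This gave 8 of the 54675 probe sets on the array, 5 for TPD52, 2 for TPD52L1 and 1 for TPD52L2. The genes were chosen by their difference from mock, since TPD52 was already known from these data to be lower in both transfectant arrays. That difference is therefore given as a description and supports nothing further.

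The cells were NCI-H1299, a line from a human non-small cell lung carcinoma. There were 3 arrays of total RNA, 1 from mock cells, 1 from cells transfected with miR-34a and 1 from cells transfected with ghR-34a. Both RNAs were delivered by lipofection at 25 nM for 48 hours, and each array was made from 250 ng of RNA. The labels describe neither the mock treatment nor the make-up of ghR-34a further. All 3 cultures are of a single cell line, and none is labelled as having received an unrelated RNA. A response to any transfected RNA and a response to miR-34a therefore cannot be told apart. Since each condition has 1 array, replicate spread is unknown, no difference was tested, and the number of arrays limits the precision. The arrays measure RNA pooled from a whole culture, so less RNA in every cell and fewer cells with much RNA cannot be told apart.

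TPD52 family proteins are small and share a coiled-coil region through which they bind themselves and each other. TPD52 was found through its high expression in tumours, and it takes part in the movement of secretory and endosomal vesicles and in lipid storage. TPD52L2 is found on small transport vesicles, and TPD52L1 has been linked to vesicle fusion and to the stress kinase MAP3K5. A microRNA guides Argonaute proteins to messenger RNAs whose 3′ untranslated region pairs with its seed, and such messages can be degraded or kept from translation. The study asked which mRNAs respond to miR-34a by degradation. A block of translation alone would not change the RNA level measured here. A lower RNA level does not by itself show degradation, since less of the RNA may have been made, and decay was not measured.

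The sequence of the guide strand is shown because its seed defines which messages it can pair with. The mature sequences below were taken from RefSeq on the GRCh38.p14 build and are written 5′ to 3′ with the seed, bases 2 to 8, in capitals.
hsa-miR-34a-5p: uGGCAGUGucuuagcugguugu
hsa-miR-449a: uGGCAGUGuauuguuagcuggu
hsa-miR-449b-5p: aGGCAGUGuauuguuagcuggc
The first is encoded on the minus strand at chr1:9151735-9151756, in MIR34A. Of the 2545 mature sequences searched, 3 carry this seed, and the others, both from chromosome 5, are shown for comparison. Whether these are all human mature sequences was not checked, so further microRNAs may carry the seed. A message pairs with the seed through the run CACUGCC. The untranslated regions of the TPD52 family genes were not analysed here, so the positions of such runs in them are not given.

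Signals are the authors' deposited linear values, with a 2% trimmed mean of about 500.1 on every array. Median signals of all probe sets were 70.6 for mock, 74.98 for miR-34a and 69.2 for ghR-34a. Differences are given as log2 of signal plus 32, which understates the change of dim probe sets, and 2-fold on this scale is a log2 difference of 1. A probe set or gene was kept when its mean level over the arrays reached the median level of the whole array, near a signal of 68.6. All 8 probe sets of the family were kept. Across 26 kept spike-in control probe sets, the log2 difference from mock had an SD of 0.13 with miR-34a and 0.15 with ghR-34a. Spike-ins are not made by the cells, so this SD leaves out variation between cultures. Over all kept probe sets the 5th and 95th percentiles were -0.61 and 0.63 with miR-34a, and -0.54 and 0.50 with ghR-34a. Keratin and vimentin genes matched an epithelial tumour line with mesenchymal traits, with mock signals of 2524 for KRT8, 17498 for KRT18 and 34003 for VIM, whereas KRT19, EPCAM, CDH1 and the lung marker NKX2-1 were not kept. KRT7 and the surfactant gene SFTPB were dim, at 217 and 203 in mock. Of the measured markers of other cells, 1 of 4 leukocyte markers (CD3E) and 3 of 7 stromal and endothelial markers (COL1A1, DCN and PECAM1) were kept. The summed leukocyte signal was 201.2, 108.8 and 137.2 in the mock, miR-34a and ghR-34a arrays, and the stromal and endothelial sum was 580.04, 626 and 624. PTPRC, the defining leukocyte marker, read 28.8, 5.31 and 24.2, and the endothelial marker CDH5 read 2.56, 15.2 and 13.5, all below the filter level.

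TPD52 was lower in both transfectant arrays at each of its 5 probe sets. Its brightest probe set, 201690_s_at, read 8834 in mock, 2786 with miR-34a and 3008 with ghR-34a. The signal that remained was 31.5% of mock with miR-34a and 34.05% with ghR-34a. Mock was the high array, and the transfectants lay close together. The log2 differences from mock were -1.65 and -1.54.

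Probe set 201689_s_at had a signal of 5699 in mock, 1572 with miR-34a and 2244 with ghR-34a. It showed the lowest remaining share of the 5 with miR-34a, 27.6% of mock, and the highest with ghR-34a, 39.4%. Probe set 201688_s_at went from 3756 in mock to 1097 with miR-34a and 1241 with ghR-34a. Its log2 differences were -1.75 and -1.57. Both bright probe sets thus placed mock above the transfectants, as the brightest did.

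The remaining TPD52 probe sets were dimmer. Probe set 236655_at read 464 in mock, 152 with miR-34a and 156 with ghR-34a, with log2 differences of -1.43 and -1.40. It is the only TPD52 probe set whose name does not end in _s_at, the mark of probes that can match more than 1 transcript. Probe set 201691_s_at read 255 in mock, 97.7 with miR-34a and 83.7 with ghR-34a. Its log2 differences were -1.15 and -1.31. The added 32 matters most here, since the plain ratio of mock to miR-34a signal was 2.61 and the ratio after adding 32 was 2.21.

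Over the 5 probe sets the log2 difference of TPD52 from mock had a median of -1.65 with miR-34a, between -1.84 and -1.15, and of -1.40 with ghR-34a, between -1.57 and -1.31. All 5 were at least 2-fold lower in each comparison. Among all 22686 kept probe sets of a single gene, 1.13% were at least 2-fold lower with miR-34a and 0.555% with ghR-34a. The comparison was part of how TPD52 came to be chosen, so these shares are given only as the background. Both differences share the same mock array, so they are not independent.

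The 5 TPD52 probe sets read the same 3 RNA samples, so their agreement does not replicate a condition. They agreed to the following extent. The log2 difference spanned 0.69 over the 5 probe sets with miR-34a and 0.26 with ghR-34a. In 470 genes with at least 5 kept probe sets, the median span was 0.57 and 0.53. With miR-34a 67.7% of these genes had a span as small as that of TPD52 or smaller, and with ghR-34a 10.4% did. TPD52 was the single gene of the 470 with all kept probe sets at least 2-fold lower, in each of the comparisons with mock. Among 2796 genes with at least 3 kept probe sets, this held for 4 genes with miR-34a, HMGN4, MET, TMEM164 and TPD52, and for MET and TPD52 with ghR-34a. These counts were added after the values were seen. TPD52 had been chosen for being low in these arrays, so its place in the counts is a description only.

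Ranked over 11917 kept genes, each represented by its brightest probe set, TPD52 had the 7th lowest difference from mock with miR-34a and the 9th lowest with ghR-34a. No other kept gene was at least as low as TPD52 in both arrays. A total of 28 kept genes were at least 2-fold lower in both, TPD52 among them. Of kept genes, 1.14% were at least 2-fold lower with miR-34a and 0.571% with ghR-34a.

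TPD52L1, the paralogue linked to vesicle fusion and MAP3K5, stayed near mock. Its brighter probe set, 203786_s_at, read 1398 in mock, 1357 with miR-34a and 1225 with ghR-34a. The dimmer probe set, 210372_s_at, read 668 in mock, 746 with miR-34a and 552 with ghR-34a. The ghR-34a array was the lowest at both probe sets, and the order of mock and miR-34a differed between them. The log2 differences from mock were -0.042 and 0.15 with miR-34a and -0.19 and -0.26 with ghR-34a. The mean of both probe sets turned the miR-34a sign of the gene, from -0.042 to 0.054.

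TPD52L2, the paralogue found on small transport vesicles, has a single probe set, 201379_s_at. It read 2156 in mock, 2241 with miR-34a and 2537 with ghR-34a, so both transfectants lay above mock. The log2 differences were 0.055 and 0.23, and the first became -0.0053 when the arrays were centred on their medians. Such small differences were common. With miR-34a 86.4% of kept genes, and with ghR-34a 39.1%, lay at least as far from mock as TPD52L2. For the brighter TPD52L1 probe set these shares were 89.5% and 48.1%.

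Within the same arrays, the differences of the paralogues from mock can be set against that of TPD52. The log2 difference of TPD52 minus that of TPD52L1 was -1.61 with miR-34a and -1.36 with ghR-34a. Minus that of TPD52L2 it was -1.71 and -1.78, a gap of 3.27-fold and 3.42-fold. A factor common to a whole array cancels in such a gap. The paralogues lay near mock, so the gaps mostly repeat the TPD52 difference for which the gene was chosen. They are a description only. Levels of different genes were not compared, because signals of different probe sets are not on a common scale.

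TPD52L3, a family gene known mainly from testis, was not among the members and was not kept at either of its probe sets. One read 36.4 in mock, 23.4 with miR-34a and 34.2 with ghR-34a. The other read 1.21, 18.4 and 15.1. No detection calls came with the values, so it is not known whether these lie above background, and no fold is given.

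Set directly against each other, the transfectants differed little in TPD52. The ghR-34a signal was above the miR-34a signal at 4 of 5 probe sets, with log2 differences, ghR-34a minus miR-34a, from -0.16 to 0.50 and a median of 0.11. None of the 5 reached 2-fold, and over all kept probe sets 0.397% passed 2-fold upward and 0.361% downward. The largest value was at 201689_s_at, 1572 against 2244, and 9.15% of kept probe sets lay at least as far from 0. At the brightest probe set the difference was 0.11, and 63.7% of kept genes lay at least as far from 0. TPD52L1 was lower with ghR-34a than with miR-34a at both probe sets, at -0.14 and -0.41, and TPD52L2 was higher, at 0.18.

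The 5 kept genes whose pair of differences from mock lay nearest to that of TPD52 were MET, RRAS, NUP210, SGPP1 and RTL8A. Nearness was the Euclidean distance over the log2 differences of miR-34a and of ghR-34a from mock, which share the mock array. MET, the receptor for hepatocyte growth factor, was at a distance of 0.074. It read 3269 in mock, 1072 with miR-34a and 1100.5 with ghR-34a. RRAS, a Ras-related GTPase, was at 0.077, with signals of 1663, 534 and 560.3 in the same order. NUP210, a nuclear pore protein, followed at 0.24, SGPP1, a phosphatase that acts on sphingosine phosphate, at 0.28 and RTL8A at 0.29. In all 5 genes mock was the high array, which their selection by nearness to TPD52 fixed in advance.

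**Figure D1:**
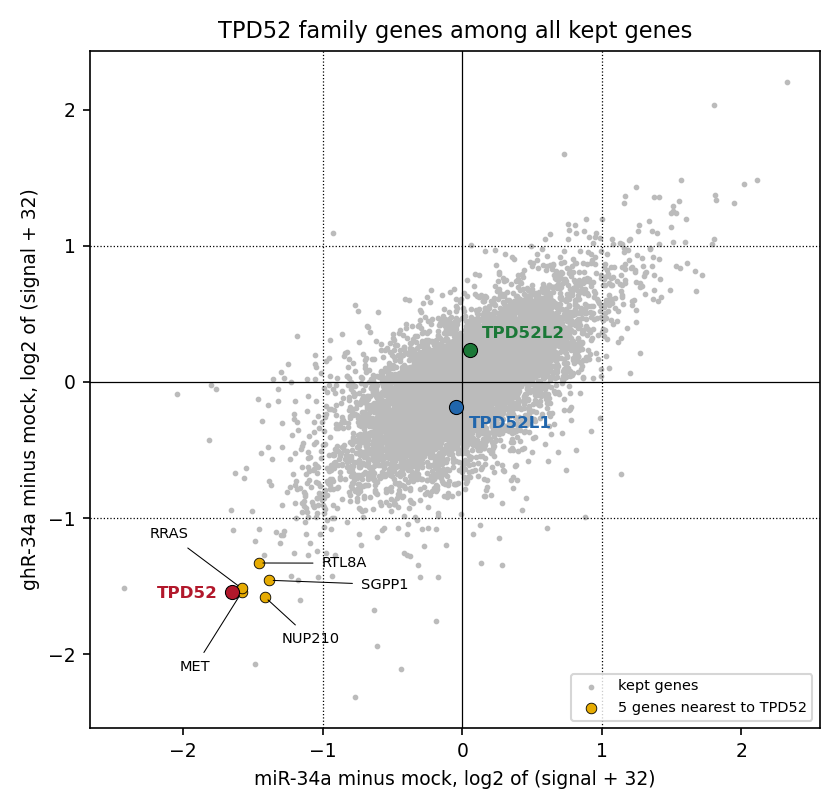
Log2 difference from mock of signal plus 32 for 11917 kept genes, miR-34a on the horizontal and ghR-34a on the vertical axis, with 1 point per gene and dotted lines at 2-fold. TPD52 lies at -1.65 and -1.54 beside MET, RRAS, NUP210, SGPP1 and RTL8A, and TPD52L1 and TPD52L2 lie near the origin; both axes share the mock array.

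The genes next to TPD52 on its chromosome lay nearer to mock than TPD52. This was nearly given by the choice of TPD52 for its difference. Only 0.159% of kept genes lay at least as far from mock with miR-34a, and 0.101% with ghR-34a. MRPS28, a mitochondrial ribosomal protein gene with which TPD52 also forms an annotated read-through gene, read 6947 in mock, 7387 with miR-34a and 6103 with ghR-34a. Its log2 differences were 0.088 and -0.19. HEY1, a transcription factor of the Notch pathway, was at -0.19 and -0.26, from signals of 375, 325 and 308. On the other side ZBTB10 was at -0.41 and 0.080 and ZNF704 at -0.29 and -0.043. Order along the chromosome was taken from RefSeq genes of GRCh38.p14, leaving out the read-through gene itself.

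Neighbours of the paralogues were also near mock where they could be read. Beside TPD52L1, HDDC2 was at 0.018 and 0.073, RNF217 at 0.25 and 0.21 and HEY2 at 0.16 and -0.25, while NKAIN2 was not kept. Beside TPD52L2, DNAJC5, a chaperone of synaptic and secretory vesicles, was at 0.045 and 0.087. ZBTB46 was at -0.40 with miR-34a and 0.43 with ghR-34a, from signals of 207 in mock, 149 and 289. ABHD16B was not kept and LOC124904951 was not analysed here.

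Of 7 genes for proteins reported to bind TPD52 family members, 5 were kept, and 0 of the 5 were 2-fold lower or higher in either transfectant. Over all kept genes 1.14% were at least 2-fold lower and 1.22% higher with miR-34a, and 0.571% lower and 0.453% higher with ghR-34a, so a count of 0 in so few genes is near this background. The median log2 difference of the 5 was -0.040 with miR-34a, or -0.0997 after median centring, and -0.18 with ghR-34a. Over all kept genes the medians were 0.038 and 0.0096, or -0.022 and 0.030 after median centring. Before centring, 55.2% of genes lay above mock with miR-34a and 51.8% with ghR-34a. STX1A, a plasma membrane SNARE, was at -0.32 and -0.36. ANXA6, a calcium-dependent membrane-binding protein, was at 0.031 and -0.20. The stress kinase MAP3K5 was at -0.098 and -0.18, the DNA damage kinase ATM at 0.092 and 0.14, and PRKAA1, a catalytic subunit of the energy sensor AMPK, at -0.040 and 0.26. MAL2, a membrane protein of apical transport and a well-known partner of TPD52, read 3.04 in mock, 20.3 with miR-34a and 1.09 with ghR-34a, below the filter level in every array. VAMP2 was not kept either.

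Of 44 SNAREs and their regulators, which carry out vesicle fusion, 39 were kept. With miR-34a 26 of 39 were above mock, against 55.2% of all kept genes, with a median of 0.096 against 0.038. After median centring 22 were, with a median of 0.036 against -0.022 over all kept genes. With ghR-34a 28 of 39 were above mock, against 51.8%, with a median of 0.12. With miR-34a 1 of 39 was at least 2-fold higher and 0 at least 2-fold lower, against 1.22% and 1.14% of all kept genes. This was SNAP25, a SNARE of regulated secretion, which read 607 in mock, 1272 with miR-34a and 851 with ghR-34a, at 1.03 and 0.47. SCFD1, which acts with SNAREs between the endoplasmic reticulum and Golgi, was at 0.61 and 0.68. The lowest were VTI1A (-0.35) and STX1A with miR-34a, and STX5 (-0.62) and USE1 (-0.41) with ghR-34a. With ghR-34a 0 of 39 were 2-fold higher or lower, against 0.453% and 0.571% of all kept genes.

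Rab GTPases, which direct vesicles to their target membranes, had 32 of 37 genes kept. Their medians were 0.081 with miR-34a, or 0.021 after median centring, and 0.025 with ghR-34a. All kept genes had a median of 0.038 with miR-34a, or -0.022 after median centring. RAB27B, a Rab of regulated secretion and exosome release, read 871 in mock, 1814 with miR-34a and 998 with ghR-34a. Its log2 differences of 1.03 and 0.19 made it the 1 of 32 Rabs at 2-fold with miR-34a, where 1.22% of all kept genes were at least 2-fold higher. Both RAB27B and SNAP25 were short of 2-fold with a pseudocount of 100 and after median centring. RAB18, a Rab of lipid droplets and the endoplasmic reticulum, was at 0.60 and 0.66. RAB21 (-0.60) and RAB3B (-0.45) were lowest with miR-34a, and RAB31 (-0.65) and RAB3B (-0.53) with ghR-34a, where RAB3D (0.35) was second highest.

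The exocyst, which tethers secretory vesicles at the plasma membrane, had all 9 genes kept. Of these, 0 were at 2-fold in either transfectant, where at most 1.22% of all kept genes were in any 1 direction, so 0 of 9 is near the background. The medians were 0.25 with miR-34a and 0.16 with ghR-34a, against 0.038 and 0.0096 over all kept genes. After median centring they were 0.19 and 0.18, against -0.022 and 0.030. EXOC5 read 2842 in mock, 1943 with miR-34a and 3384 with ghR-34a, at -0.54 and 0.25. EXOC6 also lay below mock with miR-34a (-0.23) and above it with ghR-34a (0.15). EXOC4 was at 0.50 and 0.43, EXOC6B at 0.49 and 0.23, EXOC8 at 0.30 and 0.16 and EXOC1 at 0.25 and 0.24. EXOC2 (0.26 and -0.12), EXOC3 (0.027 and -0.21) and EXOC7 (0.11 and -0.023) were above mock with miR-34a and, by the second value, below it with ghR-34a.

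Genes of the COPI and COPII coats, which carry cargo between the endoplasmic reticulum and Golgi, had 24 of 25 kept and 20 of 24 above mock in each comparison, against 55.2% of all kept genes with miR-34a and 51.8% with ghR-34a. After median centring 18 of 24 were above mock with miR-34a and 21 of 24 with ghR-34a. The medians were 0.17 and 0.14, or 0.11 and 0.16 after median centring, where all kept genes had medians of -0.022 and 0.030. None of the 24 was at 2-fold, near the background of at most 1.22% in any 1 direction. SEC24A (0.45 and 0.39) and SEC24D (0.45 and 0.41), cargo adaptors of the COPII coat, were the highest in both. PREB, which activates the COPII GTPase, was the lowest in both, with signals of 1460 in mock, 818 with miR-34a and 966 with ghR-34a. Its log2 differences were -0.81 and -0.58. COPZ1, a COPI subunit, followed at -0.54 and -0.35.

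Lipid droplet genes had 17 of 25 members kept, 0 of them at 2-fold, against at most 1.22% of all kept genes in any 1 direction. Their medians were -0.13 with miR-34a and 0.018 with ghR-34a, against 0.038 and 0.0096 over all kept genes. After median centring they were -0.19 and 0.039, against -0.022 and 0.030. DGAT1, an enzyme that makes triacylglycerol, read 491 in mock, 326 with miR-34a and 271 with ghR-34a, at -0.55 and -0.79. HILPDA, an inhibitor of lipolysis on droplets, was at -0.41 and -0.62. The coat protein PLIN3 (0.35) and the lipase activator ABHD5 (0.27) were highest with miR-34a, and LDAH (0.54) and ABHD5 (0.40) with ghR-34a. Genes of endocytosis and exocytosis had 34 of 37 members kept, 0 at 2-fold against the same background, and medians of 0.053 and 0.069. The first median was -0.0074 after median centring, where that of all kept genes was -0.022. EEA1, a tether of early endosomes, was at 0.59 and 0.63, and the calcium sensor SYT1 at -0.77 and -0.80. AP2B1 (0.53) and AP2S1 (-0.43), adaptor subunits, were among the extremes with miR-34a, and EPN1 (-0.98) and PICALM (0.38), which act with clathrin, with ghR-34a. The EPN1 value rests on signals of 111 in mock and 40.2 with ghR-34a.

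Across these 7 lists, which share some members, 174 genes were measured and 158 kept. With miR-34a 0 passed 2-fold downward, against 1.14% of all kept genes, and 2 upward, 1.27% against 1.22%. With ghR-34a 0 were at 2-fold in either direction, against 0.571% of all kept genes lower and 0.453% higher. Between the transfectants 0 were too, where 0.327% of all kept genes were at least 2-fold higher with ghR-34a and 0.344% lower. Their medians, 0.081 and 0.089, compare with 0.038 and 0.0096 over all kept genes. TPD52, at -1.65 and -1.54, lay below the lowest of the 158, which were -0.81 and -0.98. TPD52 was chosen for this difference, so its place below them was nearly given by that choice and supports nothing further.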

How the data were processed

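Linear signal intensity for 54675 probe sets on 3 arrays was deposited by the authors, made with Affymetrix Expression Console per the submitters' processing notes. Neither its version nor its algorithm and background correction is given in the sources used here. Equal trimmed means show a common scaling; values were not scaled again. The platform annotation gave the gene names, with 41097 mapped to a single gene, of which 41043 matched a RefSeq gene, 1801 to several and 11715 unnamed; 62 controls were set aside. Each of 19775 genes was represented by its brightest probe set, by mean log2(signal + 32). The size rule was a log2 difference of at least 1. No test of conditions was possible with 1 array each.

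Named genes were all members, all kept genes of lists with at most 10 kept, otherwise the 2 highest and 2 lowest per transfectant, the 2 nearest protein-coding neighbours on each side, the 5 nearest patterns, and markers. Members and lists were chosen with earlier results of these data known. Alternatives were pseudocounts of 1 and 100, median centring, quantile normalization, averaged probe sets, no _s_at or _x_at probe sets, other filters and a 1.5-fold rule. Python 3.11.15, numpy 2.4.6, pandas 2.3.3 and scipy 1.17.1 were used.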

Additional observations from a re-analysis of the deposited data

How the results depend on the processing

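TPD52 stayed at least 2-fold below mock under all 6 alternatives that could be applied to it, between -1.71 and -1.43 with miR-34a and between -1.55 and -1.40 with ghR-34a. TPD52L1 and TPD52L2 were within 2-fold under all 5 that applied to them. Without _s_at and _x_at probe sets neither paralogue had a value. Counts depended on the settings. Of the 7 trafficking and lipid droplet lists, 0 genes were 2-fold lower with miR-34a. Without a filter 2 of 174 were, against 278 of all 19775 genes. With the 1.5-fold rule 3 of 158 were lower, against 633 of 11917. The 2 that were higher became 0 with a pseudocount of 100 or median centring, and 1 with averaged probe sets or without _s_at and _x_at probe sets. With the 1.5-fold rule 5 of 158 were higher, against 794 of 11917. With ghR-34a the 0 lower genes became 1 with a pseudocount of 1, without _s_at and _x_at probe sets or without a filter. Of all kept genes, 123 of 11909, 58 of 9287 and 228 of 19775 were then lower. With the 1.5-fold rule 6 of 158 were lower, against 484 of 11917, and 3 higher, against 380. Between the transfectants, 0 lower genes became 1 with a pseudocount of 1 or no filter, against 94 of 11909 and 256 of 19775. The 0 higher became 1 with no filter, against 176 of 19775. With the 1.5-fold rule 3 of 158 were lower, against 390 of 11917, and 2 higher, against 267. Over all kept genes, 136 lower with miR-34a ranged from 74 to 633 and 145 higher from 53 to 794. With ghR-34a 68 lower ranged from 28 to 484 and 54 higher from 19 to 380. Between the transfectants 41 lower ranged from 9 to 390 and 39 higher from 17 to 267. Kept genes numbered 7764 with a filter at the 75th percentile, 11917 in the main setting and 19775 without a filter. The ranges thus mix sets of unlike size. No paired analysis was possible because each condition has 1 array, and for the same reason no array could be left out. Signals near or below 68.6 have unknown detection.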

Other observations

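Between the transfectants, some trafficking genes differed more than any TPD52 family gene did. These were picked after their values were seen and were not tested. USE1, a SNARE of the endoplasmic reticulum, read 702 in mock, 1009 with miR-34a and 519 with ghR-34a, a log2 difference of -0.92 for ghR-34a minus miR-34a. RAB27B was at -0.84 and EXOC5 at 0.79. Of 32 kept Rab genes 25 were lower with ghR-34a than with miR-34a, against 55.6% of all kept genes. Their median was -0.11, against -0.031 over all kept genes. After median centring 19 were lower, with a median of -0.034 against 0.049 over all kept genes.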
